A study of Homo sapiens with 8 samples.

Results

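The plasminogen activator system was followed through 5 genes taken by symbol from the 58828 genes counted, namely PLAU, PLAT, PLAUR, SERPINE2 and SERPINB2. RNA-seq was performed on 22RV1, an androgen-sensitive prostate carcinoma line, and DU145, an androgen-insensitive prostate carcinoma line. The study asked how PAGE4, a cancer/testis protein, changes the behaviour of prostate cancer cells under oxidative stress. Each line carried either an empty lentiviral vector or a vector with HA-tagged PAGE4, and both kinds of cells had been selected with puromycin and given doxycycline to switch on the construct. Cells received 200 mM H2O2 or PBS for 12 h. The dose is that of the labels, the study also used other H2O2 doses elsewhere, and the counts give no check of it. The 8 groups were therefore 22RV1 vector PBS, 22RV1 vector H2O2, 22RV1 PAGE4 PBS, 22RV1 PAGE4 H2O2 and the same 4 in DU145, with 1 library in each. No group had a replicate, the vector cells had also gone through infection and selection, and each library entered both an H2O2 pair and a PAGE4 pair, so both kinds of comparison share libraries.

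Plasminogen is a circulating zymogen that plasminogen activators cut into plasmin, a protease that degrades fibrin and extracellular matrix. Urokinase, made from PLAU, works largely on the cell surface, where it is held by its glycolipid-anchored receptor, the product of PLAUR, whereas tissue-type activator, made from PLAT, works mainly on fibrin. Serpins such as SERPINE2 (protease nexin-1) and SERPINB2 (PAI-2) trap the activators, and urokinase and its receptor are known for their part in the invasion of carcinoma cells.

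The libraries held between 25482984 and 43310401 counted reads, and the H2O2 library was the shallower one in all 4 pairs. PAGE4 had 0 or 1 read in each of the 4 vector libraries and between 1001 and 1489 in each of the 4 PAGE4 libraries, as labelled. The 5 markers of 22RV1 (KLK3, KLK2, HOXB13, FOLH1 and STEAP2) summed to 240 to 861 CPM (counts scaled to 1000000 per library after TMM normalization) in 22RV1 and to 13.2 to 27.4 in DU145, where KLK3, KLK2 and FOLH1 did not exceed 3 reads in any library. With H2O2 in 22RV1 all 5 of these markers were called lower, where 14.9% of all genes were, with a median log2 fold change of −1.83. The 6 markers of DU145 (VIM, CD44, LGALS1, S100A2, CAV1 and AXL) summed to 217 to 319 CPM in 22RV1 and to 1003 to 1188 in DU145, where 4 of the 6 were called higher, whereas LGALS1 was higher in 22RV1 (0.49 on the log2 scale, edgeR adjusted p = 0.00381) and CD44 was not called (0.21, edgeR adjusted p = 0.0766). With H2O2 in 22RV1, 3 of the 6 DU145 markers were called higher and 2 lower, where 12.8% and 14.9% of all genes were. Markers of endothelial cells and leukocytes were low, with at most 1.01 CPM for 3 and 1.25 for 4 genes. The 5 fibroblast genes summed to 12.9 to 27.2 CPM in 22RV1 and 6.09 to 9.27 in DU145. Of these, COL1A1 was higher with H2O2 in 22RV1 (1.18 on the log2 scale, edgeR adjusted p = 1.72e-05) and lower in DU145 (−0.62, edgeR adjusted p = 0.00800). COL3A1 and LUM were called in neither line. The share of reads on the 13 mitochondrial mRNAs was lower with H2O2 in all 4 pairs, at 5.17% to 5.70% against 6.71% to 8.19% in 22RV1 and 2.01% to 2.19% against 9.30% to 10.5% in DU145. In DU145 the share of mitochondrial 12S rRNA (MT-RNR1) was also higher with H2O2, at 4.32% to 4.54% against 0.904% to 1.04%. The part of these shifts, of the markers and of the depth in the H2O2 results below was not tested.

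PLAU lies at chr10:73909177-73917496 on the plus strand and PLAUR at chr19:43646095-43670547 on the minus strand (GRCh38, GENCODE release 44). SERPINE2 lies at chr2:223975045-224039318 on the minus strand and SERPINB2 at chr18:63871692-63903888 on the plus strand. The 250 bases before a RefSeq start (GRCh38.p14) are printed for 4 of the genes. Sequence farther from the start was not searched. Capitals mark matches to the AP-1, Sp1 and TATA box letters, which are spelled out after the sequences, and each sequence reads 5′ to 3′ on the gene's own strand up to the base before the start.
PLAUR (chr19:43670170-43670419, minus strand): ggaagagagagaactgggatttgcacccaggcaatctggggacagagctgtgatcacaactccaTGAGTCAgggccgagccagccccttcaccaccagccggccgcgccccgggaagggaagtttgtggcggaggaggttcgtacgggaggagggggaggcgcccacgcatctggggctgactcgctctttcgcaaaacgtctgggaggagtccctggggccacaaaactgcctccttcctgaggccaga
PLAU (chr10:73910882-73911131, plus strand): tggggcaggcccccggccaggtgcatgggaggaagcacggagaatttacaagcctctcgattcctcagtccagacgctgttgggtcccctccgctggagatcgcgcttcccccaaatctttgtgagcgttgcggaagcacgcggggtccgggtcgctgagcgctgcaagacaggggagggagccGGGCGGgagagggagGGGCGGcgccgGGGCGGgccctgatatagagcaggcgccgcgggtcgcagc
SERPINE2 (chr2:224038641-224038890, minus strand): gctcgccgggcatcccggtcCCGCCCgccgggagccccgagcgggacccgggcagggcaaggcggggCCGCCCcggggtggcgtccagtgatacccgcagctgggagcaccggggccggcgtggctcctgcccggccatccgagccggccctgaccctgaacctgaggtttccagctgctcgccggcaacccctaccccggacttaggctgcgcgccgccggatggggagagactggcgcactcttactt
SERPINB2 (chr18:63887455-63887704, plus strand): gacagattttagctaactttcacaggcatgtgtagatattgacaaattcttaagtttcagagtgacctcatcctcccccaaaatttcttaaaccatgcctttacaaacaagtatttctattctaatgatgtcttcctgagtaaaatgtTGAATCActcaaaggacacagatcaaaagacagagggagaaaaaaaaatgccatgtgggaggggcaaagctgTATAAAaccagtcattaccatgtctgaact

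The PLAUR window held 1 AP-1 match, TGAGTCA, at 186 to 180 bases before the start, and the SERPINB2 window held another, TGAATCA, at 102 to 96 bases, together with a TATAAA at 30 to 25 bases. These letters were found in 6.57% (TGANTCA) and 10.7% (TATAAA) of 35116 promoter windows of this length, on both strands. The PLAU window held 3 GGGCGG (Sp1) and the SERPINE2 window 2 of its reverse complement CCGCCC, letters present in 42.6% of all windows. Neither of these windows held TGANTCA, which says nothing of sequence farther upstream, where no search was made. The SERPINE2 window precedes the RefSeq start nearest to the start of its canonical GENCODE transcript and does not lie directly before the latter, so it need not be the promoter used in these cells. TGACGTCA (a cyclic AMP response element, in 1.65% of all windows), TGACNNNGC (the core of the antioxidant response element, in 10.9%) and CCGGAAG (ETS, in 8.52%) were also searched and had no match in the 4 windows printed. TGANTCA and TGACNNNGC can overlap in a longer sequence. RefSeq gives PLAU and SERPINE2 a further start each, and in those windows TGACNNNGC was found, at 1 place for PLAU and at 2 places for SERPINE2. A match is a run of letters and not a site shown to be used in these cells.

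**Figure D1:**
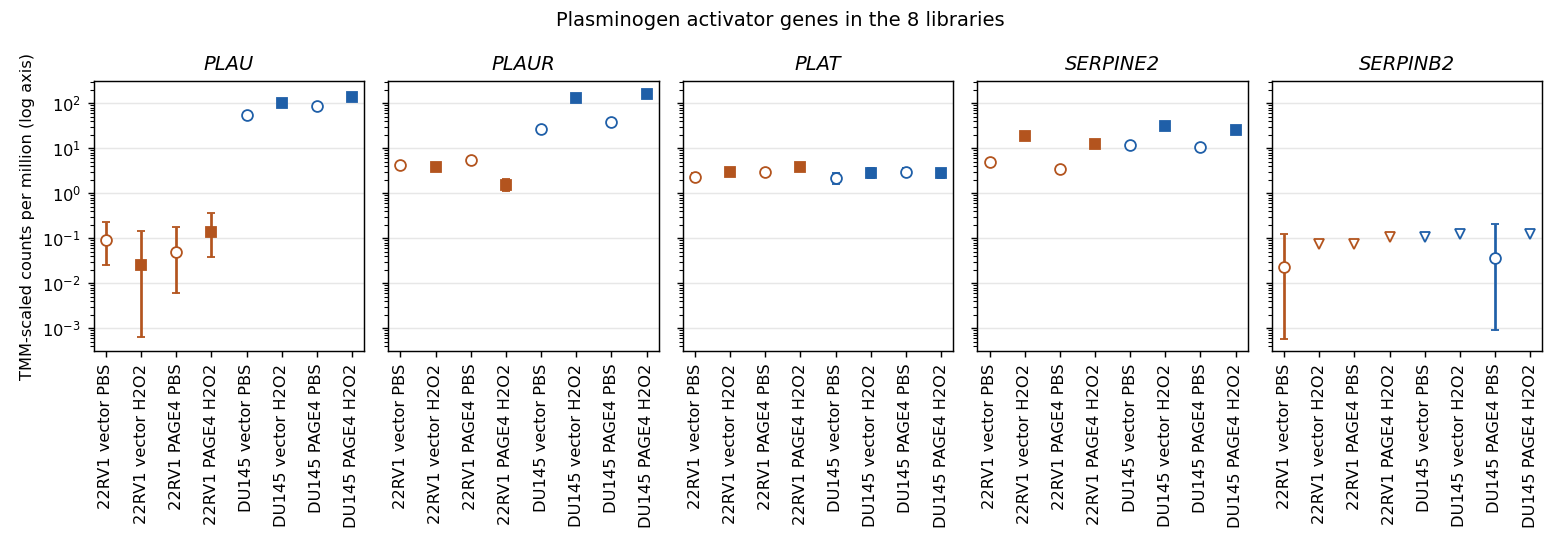
Level of each gene (TMM-scaled CPM, log axis) in the 8 libraries, with 22RV1 in brown, DU145 in blue, PBS as open circles and H2O2 as filled squares. Bars are 95% exact Poisson intervals of the counting error, and open triangles mark the level of 3 reads where no read was counted. PLAU separates the lines by far, and PLAU and PLAUR are higher with H2O2 in DU145 but not consistently in 22RV1. SERPINE2 is higher with H2O2 in both lines, PLAT stays between 2.13 and 3.81, and SERPINB2 is at or near 0.

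The lines differed most in the urokinase arm. PLAU, which encodes the urokinase activator, was near the floor of detection in 22RV1 and abundant in DU145. In 22RV1 its reads numbered 4 with vector and PBS, 1 with vector and H2O2, 2 with PAGE4 and PBS, and 4 with PAGE4 and H2O2. In DU145 the same 4 conditions gave 1529, 2498, 2410 and 3482 reads, or 55.3, 101.2, 88.3 and 141.3 CPM. No 22RV1 library came near the lowest DU145 library. Pooled over the 4 libraries of each line, 11 reads stood against 9919, a ratio of 1315 in CPM with a 95% counting interval of 735 to 2635. PLAU and a lncRNA on the opposite strand, C10orf55, overlap, and the strand setting of the counting is not given in the sources used here. C10orf55 had no read in 22RV1 and 15 to 27 in DU145.

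PLAUR, the urokinase receptor gene, was also higher in every DU145 library than in any 22RV1 library. Its reads in 22RV1 were 186, 149, 222 and 45 in the order vector PBS, vector H2O2, PAGE4 PBS and PAGE4 H2O2, or 4.24, 3.77, 5.58 and 1.56 CPM. In DU145 they were 741, 3154, 1028 and 3974, or 26.8, 127.8, 37.7 and 161.3 CPM. The ratio of DU145 to 22RV1 ranged from 6.32 in the vector PBS libraries to 103.5 in the PAGE4 H2O2 libraries. A small RNA pseudogene inside PLAUR on the same strand, RN7SL368P, had at most 33 reads in a library.

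PLAT, the tissue-type activator gene on chromosome 8 (chr8:42174718-42207709, minus strand), was low in both lines. In 22RV1 it had 103, 115, 116 and 110 reads in the same order of libraries, which is 2.35, 2.91, 2.91 and 3.81 CPM. In DU145 it had 59, 70, 82 and 69 reads, or 2.13, 2.84, 3.0 and 2.80 CPM. The lines overlapped, and the pooled ratio of DU145 to 22RV1 was 0.920 with a 95% counting interval of 0.789 to 1.07. No library differed from its neighbour in the order of levels beyond counting error, which does not compare the ends of the range. With H2O2 in 22RV1 PAGE4 cells the ratio to PBS was 1.34, with a counting interval of 1.02 to 1.75. The intervals of the other H2O2 and PAGE4 pairs held 1.

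Of the 2 inhibitor genes, SERPINE2 was expressed in both lines and SERPINB2 was not detectable above its floor in either at this depth. SERPINE2 had 222, 735, 138 and 362 reads in 22RV1, or 5.06, 18.6, 3.47 and 12.5 CPM, and 323, 784, 284 and 636 reads in DU145, or 11.7, 31.8, 10.4 and 25.8 CPM. It was higher in DU145 by 1.71 to 3.0 times in matched libraries, although the H2O2 libraries of 22RV1 lay above the PBS libraries of DU145. The 22RV1 PAGE4 H2O2 and DU145 vector PBS libraries did not differ beyond counting error, nor did the PBS libraries of DU145 from each other. SERPINB2 had 1 read in 22RV1 vector PBS, 1 in DU145 PAGE4 PBS and 0 in the other 6 libraries. SERPINB2 shares 6715 bases with a protein-coding gene on the same strand, ENSG00000289724, whose reads were not analysed here and whose part in the low counts was not tested. A count of 0 allows up to 3 reads, which is at most 0.104 CPM in 22RV1 and 0.122 CPM in DU145, and intervals and floors here cover counting error only.

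Divided by the length of the canonical transcript, PLAUR and PLAU led in DU145 with means of 64.6 ± 48.5 and 41.2 ± 15.2 CPM per kilobase (SD over 4 libraries of different conditions). SERPINE2 followed with 8.95 ± 4.74 and PLAT with 0.880 ± 0.125. In 22RV1 the order was SERPINE2 with 4.46 ± 3.15, PLAUR with 2.77 ± 1.22, PLAT with 0.978 ± 0.197 and PLAU with 0.0326 CPM per kilobase. With the length of all annotated exons merged, a choice made after seeing the data, PLAU came before PLAUR in DU145 with 32.7 against 19.8.

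In the test of the lines over 4 matched pairs of libraries, 4 of the 5 genes passed the filter on low counts, and 3 of these 4 were lower in 22RV1, where 28.5% of all 22418 tested genes were called lower. The log2 difference of 22RV1 to DU145 was −10.21 ± 0.27 (SE) for PLAU (edgeR adjusted p = 1.38e-07), −4.17 ± 0.65 for PLAUR (edgeR adjusted p = 0.000750) and −1.13 ± 0.18 for SERPINE2 (edgeR adjusted p = 0.000832). For PLAU this SE is smaller than the counting error of its 11 reads in 22RV1. That error gave the interval of 735 to 2635 for the pooled ratio above. PLAT was not called, at 0.15 ± 0.24 (edgeR adjusted p = 0.596). SERPINB2 was not tested, and PLAU, with 1 to 4 reads per library in 22RV1, passed the filter only through DU145. In bulk RNA, fewer cells that express a gene and less of its RNA per cell cannot be told apart. The pairs reuse the same 2 lines and constructs. The p-values rest on edgeR's estimate of the spread between such pairs, which borrows from other genes, and not on separate cultures.

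With H2O2, SERPINE2 rose in both lines. Its level went from 5.06 to 18.6 CPM in 22RV1 vector cells and from 3.47 to 12.5 in 22RV1 PAGE4 cells, ratios of 3.87 and 3.71 in size-factor normalized counts. In DU145 the ratios were 2.74 with vector and 2.51 with PAGE4. All 4 ratios were above 1.5-fold, the limit by which the study called genes after DESeq2, and their 95% counting intervals lay above it too. The study reported genes by this limit for PAGE4 against vector cells, not for H2O2 against PBS. Over the 4 pairs the log2 fold change was 1.62 ± 0.16 (edgeR adjusted p = 0.00116), and it was called under all 8 alternative settings. Within the lines it was 1.91 ± 0.16 in 22RV1 (edgeR adjusted p = 1.00e-07) and 1.35 ± 0.15 in DU145 (edgeR adjusted p = 1.64e-06). These tests, and all later edgeR tests within a line, came from a fit of all 8 libraries in which both lines share the spread. Their SE and p-values are therefore not those of that line alone. The difference between the lines, 0.57 on the log2 scale, was not called (edgeR adjusted p = 0.0849).

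**Figure D2:**
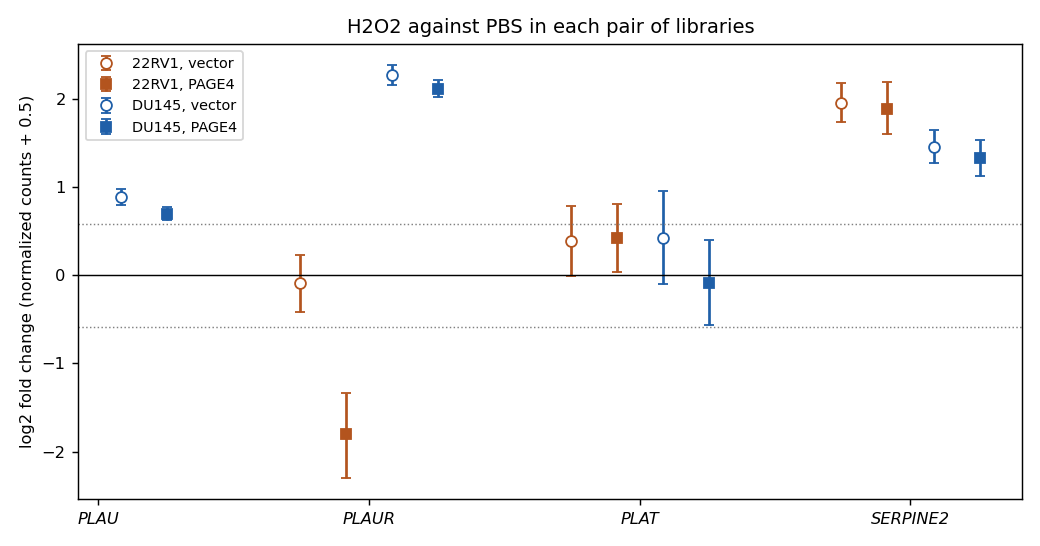
Log2 fold change of H2O2 against PBS in each pair of libraries (size-factor normalized counts plus 0.5), with 22RV1 in brown, DU145 in blue, vector cells as open circles and PAGE4 cells as filled squares. Bars are 95% Clopper-Pearson counting intervals, dotted lines mark 1.5-fold, and genes with a mean under 10 in a line are left out. SERPINE2 is above 1.5-fold in all 4 pairs, whereas PLAUR is at 2.27 and 2.11 in DU145 and at −0.09 and −1.79 in 22RV1.

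PLAUR responded to H2O2 differently in the 2 lines. In DU145 it went from 26.8 to 127.8 CPM in vector cells and from 37.7 to 161.3 in PAGE4 cells, which is 4.81-fold and 4.33-fold higher. In 22RV1 it went from 4.24 to 3.77 CPM in vector cells, a ratio of 0.937 whose log2 interval of −0.41 to 0.23 spanned 0 and whose sign turned when total counts were used for scaling. In 22RV1 PAGE4 cells it went from 5.58 to 1.56 CPM, 3.49-fold lower. The fall in 22RV1 thus came from the PAGE4 pair, whose H2O2 library had 45 PLAUR reads. The log2 fold change was 2.14 ± 0.17 in DU145 (edgeR adjusted p = 5.69e-08) and −0.80 ± 0.24 in 22RV1 (edgeR adjusted p = 0.020). The 22RV1 pairs, at −0.09 and −1.79 on the log2 scale, lay farther apart than this SE implies. It came from a spread shared by both lines. The 22RV1 call was lost without the PAGE4 pair, at −0.14 (edgeR adjusted p = 0.706), and with DESeq2's Wald test, which gave a fold change of −0.95 (adjusted p = 0.210). The difference between the lines was −2.95 ± 0.30 (edgeR adjusted p = 2.86e-06), in a comparison that called 16.3% of all tested genes. Its SE likewise understates the spread of the 22RV1 pairs. The difference was called under all 7 alternatives, some of which leave 1 pair in a line. Over the 4 pairs together PLAUR was not called, at 0.83 ± 0.62 (edgeR adjusted p = 0.386).

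PLAU rose in DU145, where it could be measured. Its level went from 55.3 to 101.2 CPM with vector and from 88.3 to 141.3 with PAGE4, ratios of 1.85 and 1.62. The log2 fold change in DU145 was 0.74 ± 0.11 (edgeR adjusted p = 4.19e-05). Over the 4 pairs it was 0.70 ± 0.19 (edgeR adjusted p = 0.0376). Without the DU145 vector pair it was 0.57 (edgeR adjusted p = 0.252) and without the DU145 PAGE4 pair 0.74 (edgeR adjusted p = 0.157), so the call was lost while the size of the change stayed similar. In 22RV1 the 11 reads gave no usable fold. PLAT was not called with H2O2, at 0.39 ± 0.28 in 22RV1 (edgeR adjusted p = 0.333) and 0.12 ± 0.30 in DU145 (edgeR adjusted p = 0.816).

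By count, 2 of the 4 genes tested, SERPINE2 and PLAU, were called higher over the 4 pairs and none lower. Of all genes, 8.89% were called higher there and 11.2% lower. PLAU, with 1 to 4 reads per library in 22RV1, passed the filter through DU145, and its call rests on the DU145 pairs. In DU145, 3 rose (PLAU, PLAUR and SERPINE2), where 16.9% of all genes were called higher, and in 22RV1, 1 rose and 1 fell, where 12.8% were called higher and 14.9% lower. By the 1.5-fold limit without a test, the same 3 genes were higher in both DU145 pairs, where 19.2% (vector) and 19.5% (PAGE4) of genes passed that limit upward. In 22RV1, SERPINE2 alone passed it upward in both pairs, where 17.9% and 15% of genes did, and PLAUR passed it downward in PAGE4 cells, where 15.8% did.

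Between PAGE4 and vector cells, PLAU was the only system gene called, in DU145. It was higher with PAGE4, at 88.3 against 55.3 CPM in PBS and 141.3 against 101.2 in H2O2, ratios of 1.6 and 1.40. The log2 fold change in DU145 was 0.57 ± 0.11 (edgeR adjusted p = 0.0494), 1 of 4 genes tested in a comparison that called 0.112% of all genes higher. The call was lost without the DU145 PBS pair, at 0.48 (edgeR adjusted p = 0.817), and without the DU145 H2O2 pair, at 0.67 (edgeR adjusted p = 0.317). PLAUR in DU145 was 1.41-fold higher in PBS and 1.26-fold higher in H2O2, with counting intervals above 1, and was not called (0.40 on the log2 scale, edgeR adjusted p = 0.600).

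**Figure D3:**
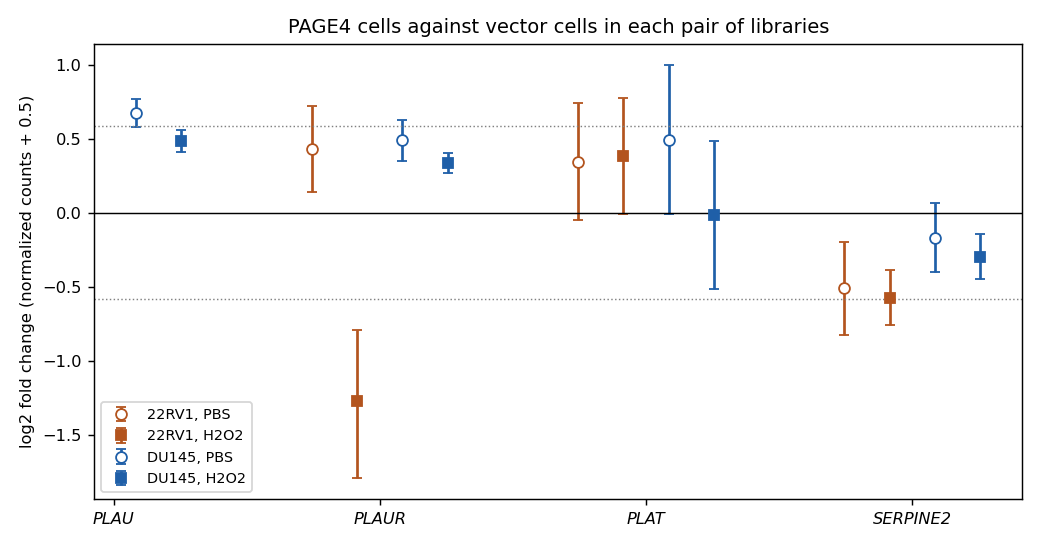
Log2 fold change of PAGE4 against vector cells in each pair of libraries (size-factor normalized counts plus 0.5), with 22RV1 in brown, DU145 in blue, PBS as open circles and H2O2 as filled squares. Bars are 95% Clopper-Pearson counting intervals and dotted lines mark 1.5-fold. PLAU in DU145 is above 0 in both pairs, SERPINE2 is below 0 in all 4, and PLAUR in 22RV1 changes sign between PBS (0.43) and H2O2 (−1.27).

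In 22RV1, PLAUR was 1.35-fold higher with PAGE4 in PBS, at 5.58 against 4.24 CPM, and 2.43-fold lower with PAGE4 in H2O2, at 1.56 against 3.77. Over both pairs it was not called (−0.21 on the log2 scale, edgeR adjusted p = 0.769). SERPINE2 was lower with PAGE4 in 4 of 4 pairs, by 0.51 and 0.57 on the log2 scale in 22RV1 and by 0.17 and 0.30 in DU145, and the interval in DU145 PBS spanned 0. These differences of SERPINE2 passed the test neither in 22RV1 (edgeR adjusted p = 0.0537) nor over the 4 pairs (−0.39, edgeR adjusted p = 0.409). PLAT was within 0.49 on the log2 scale of its vector library in all 4 pairs.

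Over the 4 pairs, edgeR called 0 of the 4 genes for PAGE4, where it called 0.174% of all genes. At an unadjusted p under 0.05, edgeR gave 2 of them, PLAU and SERPINE2, and DESeq2's Wald test called 1, PLAU (adjusted p = 0.0196). In 22RV1, edgeR and DESeq2 each called 0 of 4, where edgeR called 4.28% of all genes, and 1 gene, SERPINE2, had an unadjusted edgeR p under 0.05. For the difference of the PAGE4 effect between the lines, edgeR and DESeq2 also called 0 of 4, where edgeR called 1.84% of all genes, and 0 had an unadjusted edgeR p under 0.05. The percentages are for the adjusted edgeR p. No share of all genes is given here for the unadjusted limit or for DESeq2, so those counts cannot be set beside one. By the 1.5-fold limit, PLAU passed upward in DU145 PBS, where 7.72% of genes did, and PLAUR downward in 22RV1 H2O2, where 12.2% did. No system gene passed it in 22RV1 PBS, where 20% of genes did in either direction, or in DU145 H2O2, where 15.5% did.

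The further genes of the system, taken from lists, are given for H2O2 over the 4 pairs, where, as above, 8.89% of all genes were called higher and 11.2% lower. Of plasminogen and its surface receptors, 4 of 5 were tested and 1 fell. PLGRKT, a membrane receptor of plasminogen, went from 637 to 380 and from 576 to 283 reads in 22RV1 and from 197 to 85 and from 199 to 111 in DU145 (log2 fold change −0.71, edgeR adjusted p = 0.0217). ENO1, an enolase that also binds plasminogen at the cell surface, was not called (0.02, edgeR adjusted p = 0.908). ANXA2, a part of the annexin receptor for plasminogen and tissue-type activator, had 254, 1425, 584 and 1473 reads in 22RV1 and 40023, 24462, 39206 and 26135 in DU145, in the order vector PBS, vector H2O2, PAGE4 PBS and PAGE4 H2O2. It rose by 2.22 on the log2 scale in 22RV1 and its fold change was −0.52 in DU145, and the difference of 2.75 was called (edgeR adjusted p = 1.01e-08). ANXA2 thus lay opposite to PLAUR in the plot of the system's genes, with the higher fold change in 22RV1. ANXA2 and ENO1 have pseudogene copies, and how the counting treated reads shared with them is not given in the sources used here.

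**Figure D4:**
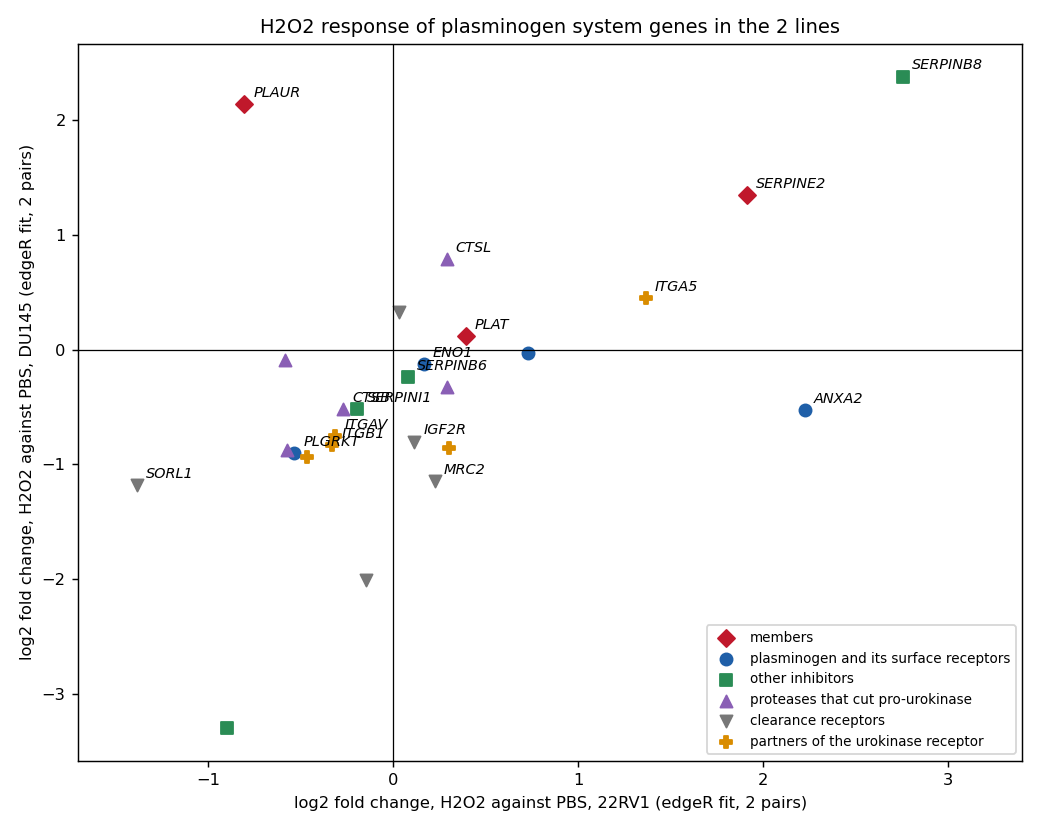
Log2 fold change of H2O2 against PBS from the edgeR fit, with 22RV1 on the horizontal and DU145 on the vertical axis, for the 26 genes of the system whose mean normalized count reached 10 in each line. Each point is a gene and its colour and shape give its list. SERPINB8 and SERPINE2 lie at the upper right, PLAUR at the upper left (−0.80 and 2.14) and ANXA2 at the lower right (2.22 and −0.52).

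Among other inhibitors, 5 of 7 were tested, 1 rose and none fell. SERPINB8, an intracellular serpin, had 215, 1537, 196 and 757 reads in 22RV1 and 171, 907, 214 and 929 in DU145, with a log2 fold change of 2.57 ± 0.16 (edgeR adjusted p = 0.000344). SERPINB6 (−0.08, edgeR adjusted p = 0.633) and SERPINI1 (−0.34, edgeR adjusted p = 0.253) were not called. Of 9 clade B serpins, most from the cluster around SERPINB2 on chromosome 18, 2 were tested and both rose. They were SERPINB8 and SERPINB5 (maspin), the latter with 29, 326, 44 and 347 reads in 22RV1 and 6, 8, 14 and 11 in DU145 (2.46, edgeR adjusted p = 0.0406). The H2O2 effect on SERPINB5 was larger in 22RV1 by 3.50 on the log2 scale (edgeR adjusted p = 0.000533). In DU145 it was 0.07 (edgeR adjusted p = 0.956), so the call of SERPINB5 over the 4 pairs rests on 22RV1.

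Of the proteases known to cut pro-urokinase, 7 of 8 were tested, 1 rose and 4 fell. The lysosomal protease CTSL rose (0.54, edgeR adjusted p = 0.0191), and its relative CTSB fell (−0.39, edgeR adjusted p = 0.0217). KLK4, a prostatic kallikrein, went from 8106 to 2982 and from 8744 to 2888 reads in 22RV1 and had 3 to 6 reads in DU145 (−1.08, edgeR adjusted p = 0.00524). In DU145 its fold change was −0.05 (edgeR adjusted p = 0.989), so the call of KLK4 over the 4 pairs rests on 22RV1. Of the receptors that clear activator and inhibitor complexes, or related receptors, 0 of 6 rose and 1 fell, SORL1 (−1.28, edgeR adjusted p = 0.00209), and neither IGF2R (−0.34, edgeR adjusted p = 0.223) nor MRC2 (−0.56, edgeR adjusted p = 0.195) was called. In DU145 alone, 4 of the 6 fell, where 19.8% of all genes were called lower, among them IGF2R (−0.80, edgeR adjusted p = 2.66e-07) and MRC2 (−1.14, edgeR adjusted p = 1.46e-06). In 22RV1, 1 of the 6 fell, and the H2O2 effect was higher in 22RV1 than in DU145 for 3 of the 6, where 8.76% of all genes were called in that direction. The difference was 0.91 for IGF2R (edgeR adjusted p = 1.23e-05) and 1.37 for MRC2 (edgeR adjusted p = 0.000370). Of the 6 partners of the urokinase receptor, 1 rose, the integrin subunit ITGA5 (0.90, edgeR adjusted p = 0.0192), and 2 fell, ITGB1 (−0.58, edgeR adjusted p = 0.0145) and ITGAV (−0.53, edgeR adjusted p = 0.0197).

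The median log2 fold change of the lists was 0.77 for the 4 system genes tested, 0.19 for the surface receptors, −0.08 for the other inhibitors, −0.39 for the proteases, −0.66 for the clearance receptors and −0.41 for the receptor partners, beside −0.03 for all genes tested. Of 13 transcription factors known from the PLAU and PLAUR promoters, 11 rose and none fell, where 8.89% of all genes were called higher, with a median of 0.98. FOSL1, a Fos-family member of AP-1, had 30, 1265, 13 and 169 reads in 22RV1 and 2703, 11131, 3847 and 12022 in DU145 (3.01 ± 0.55, edgeR adjusted p = 0.00960). Its H2O2 effect was larger in 22RV1 by 3.27 on the log2 scale (edgeR adjusted p = 1.96e-07). RELA, an NF-kappaB subunit (0.54, edgeR adjusted p = 0.0108), and JUND (0.52, edgeR adjusted p = 0.00868) also rose.

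The genes most like PLAUR, SERPINE2 and PLAT were sought by Pearson's correlation of log2(CPM + 0.5) over the 8 libraries, after the mean of each line was subtracted, among 12322 genes with a mean of at least 50 in both lines. PLAU and SERPINB2 did not reach this minimum and were not compared. For PLAUR these were GID8 (0.987), SNRPB (0.985) and GOLGA4 (0.983). The correlation does not compare the size of a change. With H2O2 in DU145 vector cells GID8 went from 58.4 to 68.6 CPM, where PLAUR went from 26.8 to 127.8. For SERPINE2 they were RP11-384K6.6 (0.997), ASAP1 (0.996) and CRABP2 (0.993), and CRABP2, which binds retinoic acid, went from 4.31 to 13.9 and from 2.81 to 8.13 CPM with H2O2 in 22RV1 and from 27.4 to 72.1 and from 24.4 to 52.2 in DU145. For PLAT they were UQCR11 (0.955), TPGS1 (0.95) and LINC00176 (0.933). The points share libraries and depth, and these values are descriptions.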

How the data were processed

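RNA-seq counts of 8 libraries (2 lines, 2 constructs, 2 treatments, 1 library per condition) were analysed. Per the labels, the authors aligned the reads with HISAT2 2.1.0 (GRCh38) and summed them over genes with featureCounts 1.6.0. They deposited the unnormalized counts of each line in a table of its own. The annotation release and the strand setting are not given in the sources used here. Genes were joined between the tables by symbol, and 26 symbols that read as dates were left unchanged.

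Tests were made with edgeR 4.0.16 (quasi-likelihood, run in R 4.3.3) after TMM normalization, with its default filter on low counts (22418 genes kept), pairs of libraries as blocks and Benjamini-Hochberg adjustment over all genes tested, and a gene was called at an adjusted p under 0.05. Ratios of 2 libraries used DESeq2 1.42.0 size factors within a line, a mean normalized count of at least 10, a limit of 1.5-fold after the study's methods, a pseudocount of 0.5 for log2 values and 95% Clopper-Pearson intervals, with no test. Reads were not independent molecules, so these intervals cover counting error only. In edgeR, effects within a line were fitted on all 8 libraries, with the spread shared by both lines. The SE given for edgeR is the absolute log2 fold change divided by the square root of the test's F statistic. Scripts were tested on simulated data. Coordinates and lengths came from GENCODE release 44 on GRCh38, and promoter sequences from RefSeq on GRCh38.p14.

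The 5 genes, the further lists and the settings were chosen with earlier results of these data known. All 5 genes were described. At most 3 genes per further list are named, those with the highest mean level per kilobase among the called and then among the rest. A few genes of the further and marker lists are not reported here and were left out of the lists' counts, sums and medians. Alternatives were DESeq2 size factors or its Wald test, no filter, an additive model, each pair left out in turn, and other scalings, minimums, folds and pseudocounts for the ratios.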

Additional observations from a re-analysis of the deposited data

Results flagged for a closer look

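The H2O2 effect on PLAUR, the urokinase receptor gene, differed between the lines by a test of the difference itself, at −2.95 ± 0.30 on the log2 scale for 22RV1 minus DU145 (edgeR adjusted p = 2.86e-06). Under the 7 alternatives the difference ranged from −3.99 to −2.31. The adjusted p was 9.20e-07 with edgeR on DESeq2 size factors and 0.000887 with DESeq2's Wald test. A fit with a pair left out holds 1 pair in a line and cannot show the spread between pairs there. The 22RV1 pairs, at −0.09 and −1.79, also lay farther apart than the SE of the difference implies. PLAUR was higher with H2O2 in 2 of 2 DU145 pairs and lower in 2 of 2 22RV1 pairs, of which the vector pair had a counting interval that spanned 0 and turned its sign with scaling by total counts. In DU145, the share of mitochondrial mRNA was 2.01% to 2.19% with H2O2 against 9.30% to 10.5% with PBS, and in 22RV1 5.17% to 5.70% against 6.71% to 8.19%, and the part of this in the difference was not tested.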

How the results depend on the processing

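No library has a replicate, so leaving out 1 means leaving out a pair of libraries, and a line with 1 pair left is then assumed to vary like the other. SERPINE2 with H2O2 and the differences of PLAU, PLAUR and SERPINE2 between the lines were called under every alternative tried, and so were the DU145 H2O2 calls of PLAU, PLAUR and SERPINE2. Counts of system genes called ranged, with each pair left out, from 1 to 2 for H2O2 over the 4 pairs, from 1 to 2 for H2O2 in 22RV1, from 0 to 1 for PAGE4 in 22RV1, from 0 to 2 for PAGE4 in DU145 and from 0 to 1 for the PAGE4 difference between the lines. With DESeq2's Wald test, 1 gene was called for H2O2 in 22RV1 and 1 for PAGE4 over the 4 pairs. With no filter on low counts, 1 was called for PAGE4 over the 4 pairs and 1 for PAGE4 in 22RV1. PLAUR was then called for H2O2 over the 4 pairs (0.82, edgeR adjusted p = 6.80e-06, against 0.386 with the filter). Its log2 fold changes in the 4 pairs ranged from −1.79 to 2.27, so the p-value without the filter is no measure of the spread between pairs. Without a minimum, 19 ratios of libraries in place of 11 passed 1.5-fold, the added ones from PLAU in 22RV1 or SERPINB2. Signs changed only in values that were not called, listed here as log2 fold changes over the pairs left out. For H2O2, PLAU in 22RV1 ranged from −1.67 to 1.41, PLAT in DU145 from −0.14 to 0.38 and the PLAU difference from −2.44 to 0.64. For PAGE4 in 22RV1, PLAU ranged from −0.78 to 2.29 and PLAUR from −1.26 to 0.43. The 22RV1 PAGE4 value of PLAUR was called without the PBS pair, at −1.26 (edgeR adjusted p = 9.96e-05). For PAGE4 in DU145, PLAT ranged from −0.024 to 0.49, and PLAUR was called without either 22RV1 pair (edgeR adjusted p = 0.00267 and 0.00359). For the PAGE4 difference, PLAU ranged from −1.35 to 1.71 and was 0.0058 with DESeq2's Wald test, PLAUR ranged from −1.66 to 0.026 and PLAT from −0.13 to 0.38. What caused them was not tested. Scaling by total counts moved the median of all genes by 0.11 and 0.12 in the 22RV1 H2O2 pairs and turned the sign of PLAUR in the vector pair. PLAU in 22RV1 and SERPINB2 are limited by depth, since 11 and 2 reads cannot show a change.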
